A study of Homo sapiens with 15 samples.

Results

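A set of 8 genes for secreted growth factors, CSF1, CSF2, LIF, OSM, IL6, KITLG, ANGPT2 and TGFB1, was followed in TF-1, a human erythroleukaemia cell line whose growth depends on added cytokine, and in TF-1 lines whose IDH1 or IDH2 gene was mutated by base editing. The genes were chosen by symbol with earlier results of these data known, so shares over all genes set beside their counts are a description. Each stood on exactly 1 row of the deposited table, out of 56624 symbols in all. RNA was read in 15 libraries, which made 5 groups of 3. Parental cells were unedited and grew with 2 ng/ml recombinant GM-CSF, and the lines IDH1R132H, IDH2R140Q, IDH2R140W and IDH2R172K carried the IDH mutation in their name and grew without GM-CSF. Serum-containing RPMI medium was common to the 5 groups. The labels do not say whether a line was 1 clone or a pool, nor whether its 3 libraries were separate cultures. Genotype and GM-CSF changed together in every comparison with Parental and cannot be told apart there, whereas the 4 edited lines shared their medium.

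GM-CSF, the product of CSF2, binds a receptor of an alpha chain (CSF2RA) and a beta chain (CSF2RB) that carries JAK2 and signals mainly through STAT5. M-CSF, the product of CSF1, acts on CSF1R and drives monocytes and macrophages, and KITLG encodes stem cell factor, the ligand of KIT on early progenitors. LIF, OSM and IL6 belong to 1 cytokine family whose receptors share the IL6ST chain and signal through JAK kinases and STAT3. ANGPT2 binds TEK, best known on endothelium, and TGFB1 is secreted in a latent form and, once released, signals through SMAD proteins and restrains the growth of many blood progenitors. The transcripts measured here are the cells' own, since added protein contributes no RNA, and RNA does not measure how much factor was secreted.

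Of the 8 genes, 6 reached 1 TPM (an abundance corrected for gene length and library total) in at least 3 libraries and were tested with 14881 genes in all. IL6 and KITLG stood at or near 0, so the label of factors made by the cells was not borne out for them at the level of RNA. A gene was called changed where the adjusted p of limma (Benjamini-Hochberg) was under 0.05 and the difference on the log2(TPM + 1) scale was at least 1, or 2-fold, a scale that understates changes of low genes. Counts at an unadjusted p under 0.05 are given without the share of all tested genes at that p, so they are a description. Means are given ± SD (n = 3 libraries). The libraries may be technical repeats, so that p-values cover no more than the spread among them, and the 4 comparisons with Parental share its 3 libraries.

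Between 12796 and 13792 symbols reached 1 TPM in a library, Pearson's r across genes was 0.974 to 0.990 within groups, and each of the 15 lay closest to one of its own group. Parental replicate 2 and IDH2R140W replicate 3 gave 20.7% and 21.6% of their TPM to ribosomal protein genes, where the rest of those groups gave 16.5% to 18.2% and the remaining 3 groups 13.5% to 15.2%. Those 2 libraries are each the lowest of their group for CSF1, LIF and ANGPT2, and without both the same growth factor genes were called in each line against Parental and among the edited lines. The progenitor markers CD34, CD33, GATA2 and TAL1 were above 70 TPM on average in every group. Other TF-1 markers differed between groups. HBG2 averaged 880 TPM in Parental, then 24.0, 6.07, 133 and 676 in IDH1R132H, IDH2R140Q, IDH2R140W and IDH2R172K. In the same order HBG1 averaged 144, 3.24, 0.567, 21.8 and 110, and CD38 1.31, 0.607, 9.26, 6.31 and 5.5. CD34 itself was called higher than Parental in IDH1R132H, IDH2R140Q and IDH2R172K. GATA1, IL3RA and CSF2RA were listed at 0. Symbols on more than 1 row were often at 0, namely 68.0% of 1070 protein-coding symbols on several rows against 7.66% of 16594 on 1 row, and the housekeeping genes PGK1 and UBA1 were among them, so such a 0 does not show absence. Of T cell, B cell, monocyte, fibroblast, epithelial and endothelial markers, most were under 1 TPM, and those above it included CD3D, LYZ, TIE1 and CDH5. CD3D stood at 68.4 ± 12.4 TPM in Parental and 32.0, 2.04, 9.09 and 52.7 on average in IDH1R132H, IDH2R140Q, IDH2R140W and IDH2R172K, with the other CD3 chains CD3E and CD3G at or under 0.21 in each library. In such bulk RNA, fewer cells of a kind and less RNA per cell cannot be told apart.

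The edited lines did not share 1 pattern. In IDH1R132H 4 of the 6 tested factors fell (CSF1, CSF2, LIF and OSM) and 1 rose (TGFB1), where 3.09% of tested genes fell, 7.74% rose and 10.8% changed. In IDH2R140Q CSF2 and LIF fell and ANGPT2 rose, against a background of 2.47% lower, 7.56% higher and 10.0% changed. In IDH2R140W 4 factors rose (CSF1, LIF, OSM and ANGPT2) and 0 fell by limma, also 0 at an unadjusted p under 0.05, where 2.68% of genes rose, 2.10% fell and 4.78% changed. In IDH2R172K CSF1 and LIF fell and 0 rose by limma, with 3 higher at an unadjusted p under 0.05 (CSF2, ANGPT2 and TGFB1), where 2.96% of genes fell, 6.36% rose and 9.31% changed. CSF2 and TGFB1 passed on adjusted p but not on fold in both IDH2R140W and IDH2R172K, as did OSM (lower) and TGFB1 (higher) in IDH2R140Q. The median difference of the 6 was −1.48, −0.24, 1.17 and 0.09 in the order just used, beside medians over tested genes of 0.16, 0.23, 0.03 and 0.13. Scaling by the median ratio brings the medians over tested genes close to 0. It also moves the share of changed genes that were higher from 71.5%, 75.4%, 56.1% and 68.3% in these lines to 54.8%, 55.5%, 53.5% and 54.7%, and 2 upward calls among the factors ended under it, given below with TGFB1 and LIF.

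**Figure D1:**
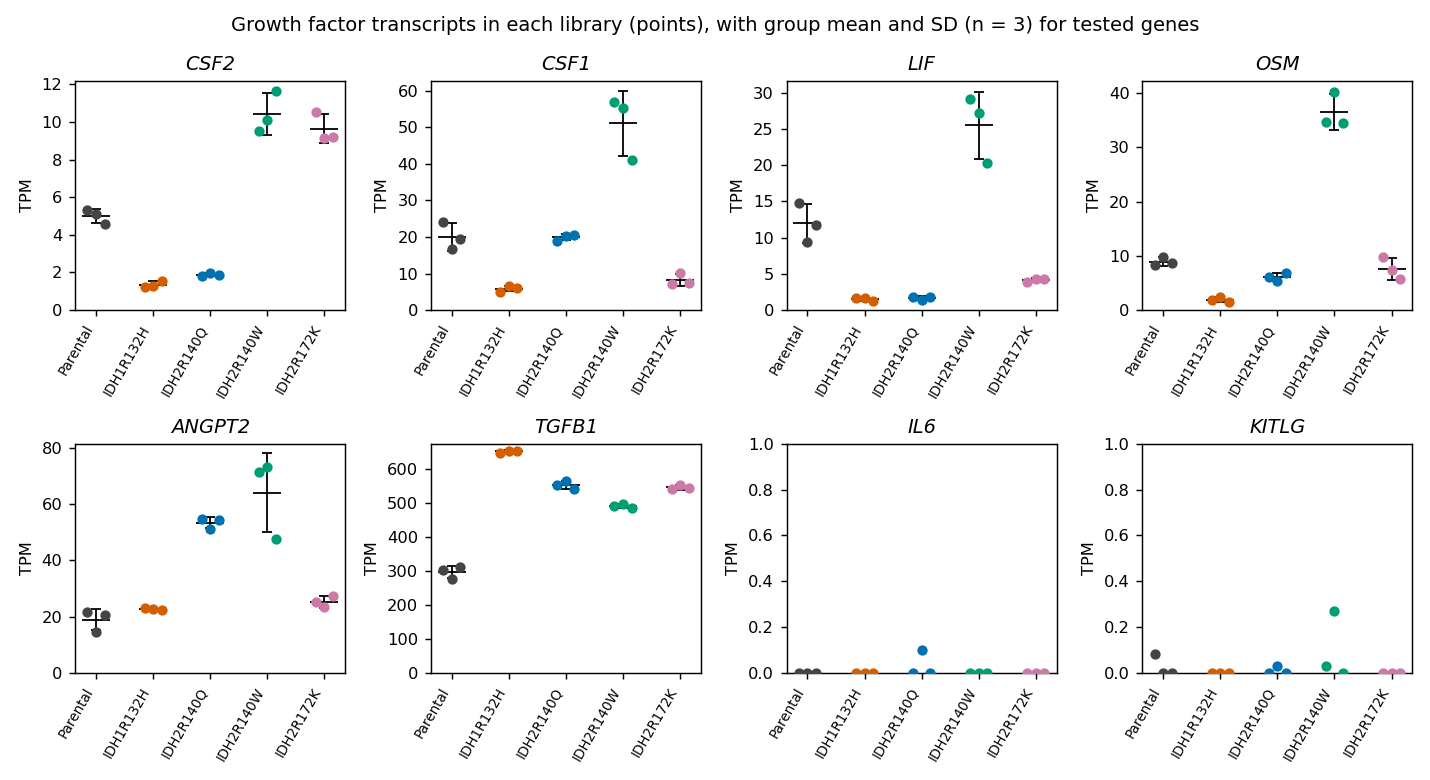
Level of each growth factor gene in TPM (vertical axes, linear, each with its own range) in the 15 libraries, as points by group, with the group mean and SD (n = 3) for the 6 tested genes. IDH2R140W holds the highest mean of CSF1, LIF, OSM and ANGPT2, IDH1R132H the lowest mean of CSF1, CSF2, LIF and OSM, TGFB1 is lowest in Parental, and IL6 and KITLG lie at or near 0.

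CSF2, the gene of GM-CSF itself (ENSG00000164400, hg38 chromosome 5, 132073790 to 132076170, plus strand), was transcribed at a low level in every library. Replicates 1, 2 and 3 held 5.30, 5.09 and 4.60 TPM in Parental, 1.23, 1.26 and 1.56 in IDH1R132H, and 1.80, 1.98 and 1.88 in IDH2R140Q. They held 9.50, 10.1 and 11.7 TPM in IDH2R140W and 10.5, 9.17 and 9.20 in IDH2R172K. The lines thus fell on both sides of Parental, which no library of an edited line overlapped, and IDH2R140W and IDH2R172K overlapped each other. CSF2 fell from 4.997 ± 0.359 to 1.35 ± 0.183 in IDH1R132H, 3.70-fold lower (log2 difference −1.35, 95% confidence interval −1.62 to −1.09, limma adjusted p = 1.00e-06). It fell to 1.89 ± 0.0902 in IDH2R140Q (−1.05, −1.32 to −0.79, limma adjusted p = 1.24e-05), a difference of −0.97 when libraries were weighted by their variability. In IDH2R140W CSF2 was 2.09-fold higher at 10.4 ± 1.11 (0.93, 0.66 to 1.19, limma adjusted p = 7.83e-05), under the 2-fold limit on the log2(TPM + 1) scale and at 1.04 with a pseudocount of 0.1. In IDH2R172K it was 1.93-fold higher at 9.64 ± 0.783 (0.83, 0.56 to 1.09, limma adjusted p = 0.000111).

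The 250 bases before the RefSeq start of CSF2 (GRCh38.p14, chr5:132073539-132073788, plus strand) are shown because the gene encodes the cytokine left out of the medium of the edited lines and lay on both sides of Parental among them. Capitals mark a match to TTCNNNGAA, the GAS element that STAT factors bind, whose first base lies 190 bases before the start. Such a match, on either strand, stands in 6.57% of 35116 promoter windows of this length, and it is a description of the letters and not of binding.
CSF2: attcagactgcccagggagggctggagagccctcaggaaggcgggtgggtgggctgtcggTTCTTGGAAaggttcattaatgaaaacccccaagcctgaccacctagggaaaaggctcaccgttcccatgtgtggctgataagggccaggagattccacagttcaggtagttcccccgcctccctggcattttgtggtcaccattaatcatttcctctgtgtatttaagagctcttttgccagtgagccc
On neither strand did the window hold the AP-1 element TGANTCA. It likewise held no match to the kappaB letters that were searched, and other forms of the kappaB element were not searched. For GATA factors only the letters AGATAA were searched, which it did not hold, and other forms of the element were not searched. Of the neighbours of CSF2, IL3, another cytokine gene of the same chromosome region, was listed at 0 in the 15 libraries on its 1 row. The nearest tested coding genes were ACSL6, 61547 bases away, which stayed under 1 TPM on average in each group, and P4HA2, a collagen prolyl hydroxylase 115668 bases away. P4HA2 fell from 2.93 to 0.927 TPM in IDH1R132H (−1.05, limma adjusted p = 0.00116) and to 0.833 in IDH2R140W (−1.10, 0.00172). It was also lower, short of the limit, at 1.18 in IDH2R140Q (−0.87, limma adjusted p = 0.00469) and 1.21 in IDH2R172K (−0.85, 0.00616). P4HA2 was thus lower than Parental in the 4 edited lines, where CSF2 lay on both sides.

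CSF1 (ENSG00000184371, chromosome 1, 109910242 to 109930992, plus strand), the gene of M-CSF, rose in 1 line and fell in 2. Parental replicates 1, 2 and 3 held 24.0, 16.6 and 19.4 TPM, those of IDH1R132H 5.08, 6.57 and 5.99, and those of IDH2R140Q 19.0, 20.4 and 20.6. IDH2R140W held 57.0, 55.3 and 40.9, and IDH2R172K 7.16, 10.0 and 7.35. All 3 IDH2R140W libraries lay above the other 12, all 3 of IDH1R132H lay below them, and IDH2R140Q lay within the range of Parental. CSF1 rose 2.55-fold to 51.1 ± 8.81 in IDH2R140W (1.31, 0.96 to 1.66, limma adjusted p = 4.66e-05). It fell 3.40-fold to 5.88 ± 0.751 in IDH1R132H (−1.60, −1.95 to −1.25, 3.11e-06) and 2.45-fold to 8.18 ± 1.60 in IDH2R172K (−1.19, −1.54 to −0.84, 5.47e-05, limma adjusted p in both). In IDH2R140Q the mean of 20.0 ± 0.893 was that of Parental, 20.0 ± 3.76 (0.01, −0.34 to 0.36, limma adjusted p = 0.958), and the sign of this difference turned with the scaling, at −0.24 after median-ratio scaling. CSF1R, the receptor of M-CSF, had another order among the lines, given below.

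LIF (ENSG00000128342, chromosome 22, 30240447 to 30246851, minus strand), a cytokine named for its effect on leukaemic cells, fell in 3 lines and was highest in IDH2R140W. Parental held 14.7, 9.45 and 11.7 TPM in replicates 1, 2 and 3, IDH1R132H 1.69, 1.73 and 1.28, and IDH2R140Q 1.82, 1.36 and 1.86. In IDH2R140W the 3 libraries stood at 29.2, 27.2 and 20.3 and in IDH2R172K at 3.84, 4.24 and 4.31. IDH1R132H and IDH2R140Q overlapped each other at the bottom, and no edited line overlapped Parental. LIF fell 7.64-fold to 1.57 ± 0.249 in IDH1R132H (−2.32, −2.69 to −1.95, limma adjusted p = 1.24e-07). The fall was 7.12-fold, to 1.68 ± 0.278, in IDH2R140Q (−2.26, −2.63 to −1.89, limma adjusted p = 2.20e-07), and 2.90-fold, to 4.13 ± 0.254, in IDH2R172K (−1.32, −1.69 to −0.95, 3.50e-05). The rise in IDH2R140W, 2.13-fold to 25.5 ± 4.65 from 11.97 ± 2.65, lay close to the limit (1.04, 0.67 to 1.41, limma adjusted p = 0.000504). It was 0.89 without Parental replicate 2, 0.94 without IDH2R140W replicate 1, 0.99 without IDH2R140W replicate 2 and 0.99 after median-ratio or quantile scaling, each with an adjusted p still under 0.05. Without Parental replicate 2 and IDH2R140W replicate 3 together it was 1.04.

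OSM (ENSG00000099985, chromosome 22, 30262829 to 30266840, minus strand), oncostatin M, had the widest span of group means among the 6, 19.3-fold. Replicates 1, 2 and 3 held 8.24, 9.86 and 8.71 TPM in Parental, 1.83, 2.38 and 1.47 in IDH1R132H, and 6.06, 5.28 and 6.88 in IDH2R140Q. IDH2R140W stood at 34.6, 40.3 and 34.5 and IDH2R172K at 9.71, 7.40 and 5.70. Each IDH2R140W library lay above, and each IDH1R132H library below, the other 12, and IDH2R172K overlapped both Parental and IDH2R140Q. OSM rose 4.08-fold to 36.5 ± 3.32 in IDH2R140W (1.91, 1.55 to 2.28, limma adjusted p = 2.21e-06) and fell 4.72-fold from 8.94 ± 0.833 to 1.89 ± 0.458 in IDH1R132H (−1.79, −2.16 to −1.42, 1.67e-06). In IDH2R140Q it was 6.07 ± 0.800, past the p threshold but short of 2-fold (−0.49, −0.86 to −0.13, limma adjusted p = 0.0309). In IDH2R172K it was 7.60 ± 2.01 (−0.23, −0.60 to 0.14, limma adjusted p = 0.305).

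LIF and OSM are neighbours, 15978 bases apart on chromosome 22 and on the same strand, and each is the other's nearest tested coding gene on 1 side. Both rose in IDH2R140W and both fell in IDH1R132H, but in IDH2R140Q LIF fell 7.12-fold while OSM was 1.47-fold lower. The next gene beyond OSM, CASTOR1 (an arginine sensor of the mTORC1 pathway, 18277 bases away), fell from 10.9 to 3.66 TPM in IDH1R132H (−1.37, limma adjusted p = 0.00206) and was 14.1 in IDH2R140W (0.41, 0.380). Over the 15 libraries, which group by line and so are not independent points, LIF and OSM correlated with Pearson's r = 0.878, CSF1 and OSM with 0.872, and LIF and ANGPT2 with 0.246.

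IL6 (ENSG00000136244, chromosome 7, 22725884 to 22732002, plus strand), of the same family as LIF and OSM, was listed at 0 in 14 libraries and at 0.10 TPM in IDH2R140Q replicate 2. KITLG (ENSG00000049130, chromosome 12, 88492793 to 88580851, minus strand) was listed at 0 in 11 libraries, at 0.08 in Parental replicate 1, at 0.03 in IDH2R140Q replicate 2, and at 0.03 and 0.27 in IDH2R140W replicates 1 and 2. Neither gene came near the 1 TPM filter in any library. Exact two-sided permutation tests of mean TPM against Parental gave p = 1 for IL6 in each line, and for KITLG 0.700 in IDH2R140W and 1 in the others, in a design that cannot go below 0.10. Both genes are on 1 row each. The IL6 promoter window (RefSeq, 250 bases before the start) held a kappaB match, GGGATTTTCC, 73 bases before the start, and that of KITLG held no match to the 4 motifs.

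ANGPT2 (ENSG00000091879, chromosome 8, minus strand), a ligand that modulates TEK signalling, rose in IDH2R140Q and IDH2R140W, the lines edited at the same residue of IDH2. Its replicates 1, 2 and 3 stood at 21.6, 14.5 and 20.7 TPM in Parental, 23.1, 22.6 and 22.4 in IDH1R132H, and 54.7, 51.1 and 54.5 in IDH2R140Q. IDH2R140W held 71.3, 73.1 and 47.7, and IDH2R172K 25.0, 23.3 and 27.4. The first 2 groups were the lowest, and the low replicate 3 of IDH2R140W reached below the range of IDH2R140Q. ANGPT2 rose 2.82-fold to 53.4 ± 2.03 in IDH2R140Q (1.47, 1.13 to 1.81, limma adjusted p = 6.09e-06) and 3.38-fold to 64.1 ± 14.2 in IDH2R140W (1.70, 1.36 to 2.04, 3.18e-06), from 18.9 ± 3.86. It was 22.7 ± 0.376 in IDH1R132H (0.27, −0.07 to 0.61, limma adjusted p = 0.190) and 25.2 ± 2.04 in IDH2R172K (0.41, 0.07 to 0.75, 0.0530). Its partner ANGPT1, which activates TEK, rose in IDH1R132H from 5.98 ± 1.32 to 20.2 ± 1.48 TPM (1.62, limma adjusted p = 3.43e-05) and in IDH2R140Q to 15.7 ± 1.57 (1.27, 0.000314), where it was 0.97 after quantile normalisation. ANGPT1 did not pass in IDH2R140W (9.58 ± 3.14, 0.57, limma adjusted p = 0.0691) or IDH2R172K (8.58 ± 1.63, 0.46, 0.104).

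TGFB1 (ENSG00000105329, chromosome 19, 41301587 to 41353911, minus strand) was the most abundant of the 8 per transcript length and the 1 factor above Parental in the 4 lines at an adjusted p under 0.05, as were 6.17% of tested genes. Parental held 301, 275 and 311 TPM in replicates 1, 2 and 3, IDH1R132H 647, 653 and 653, and IDH2R140Q 551, 563 and 539.9. IDH2R140W held 491, 495 and 484, and IDH2R172K 539, 553 and 543. Every edited library exceeded the highest Parental one, and of the lines IDH2R140Q and IDH2R172K overlapped. TGFB1 rose 2.20-fold from 295.6 ± 18.1 to 651 ± 3.33 in IDH1R132H (1.14, 1.04 to 1.24, limma adjusted p = 6.06e-10), a difference of 0.94 after median-ratio scaling (3.51e-08), which is under 2-fold. It was 1.87-fold higher at 551.5 ± 11.7 in IDH2R140Q (0.90, 0.80 to 1.00, limma adjusted p = 6.10e-09) and 1.84-fold higher at 545 ± 7.13 in IDH2R172K (0.88, 0.78 to 0.99, 8.85e-09). In IDH2R140W it was 1.66-fold higher at 490.0 ± 5.24 (0.73, 0.63 to 0.83, limma adjusted p = 1.12e-07).

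The 250 bases before the RefSeq start of TGFB1 (GRCh38.p14, chr19:41353923-41354172, minus strand) are shown beside those of CSF2 because TGFB1 was the abundant factor and differed from Parental in 1 direction. Capitals mark a kappaB match, 154 bases before the start, of a kind found in 9.96% of the promoter windows.
TGFB1: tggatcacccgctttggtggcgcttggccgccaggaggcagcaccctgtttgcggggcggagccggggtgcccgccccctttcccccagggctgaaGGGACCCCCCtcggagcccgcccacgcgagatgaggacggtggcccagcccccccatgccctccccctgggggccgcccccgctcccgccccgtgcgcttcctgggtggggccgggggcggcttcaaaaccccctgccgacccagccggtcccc
Of this window 76.8% was G or C, against 54.0% of that of CSF2, and it held no match to GAS, AP-1 or AGATAA. AXL, a receptor kinase gene 39821 bases from TGFB1, fell in the 4 lines, from 19.3 TPM to 8.44, 5.41, 4.62 and 2.90 in IDH1R132H, IDH2R140Q, IDH2R140W and IDH2R172K (−1.09, −1.65, −1.87 and −2.37, limma adjusted p between 6.53e-07 and 0.000612). B9D2, a cilium gene 510 bases away on the other side, was 0.99 higher in IDH1R132H (limma adjusted p = 3.36e-05), just under 2-fold, and between 0.17 and 0.37 higher in the other lines.

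**Figure D2:**
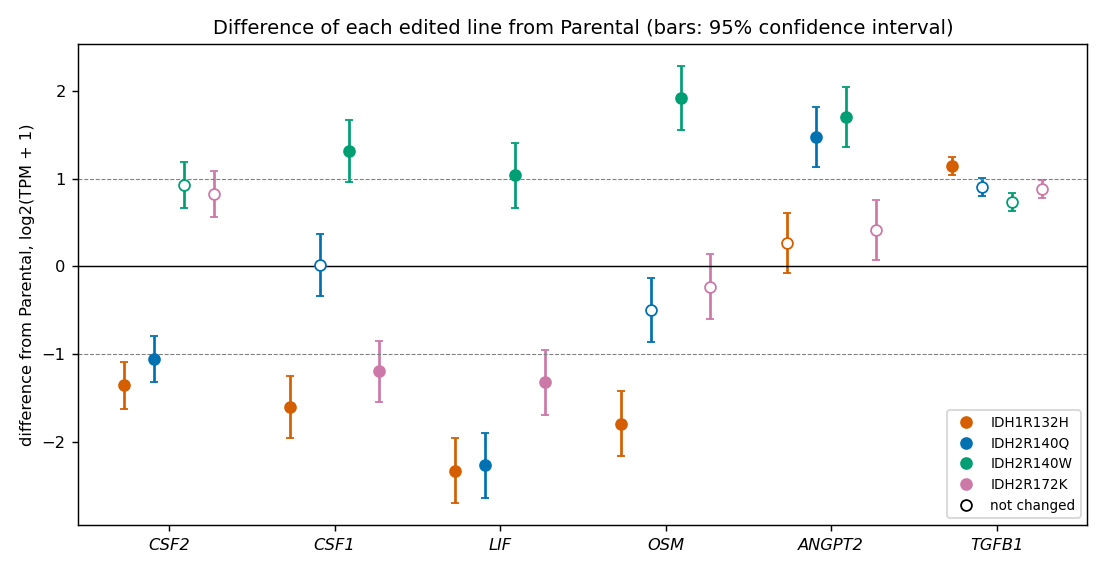
Difference of each edited line from Parental on the log2(TPM + 1) scale (vertical axis) for the 6 tested growth factor genes, with 95% confidence intervals, filled points for genes called changed, and dashed lines at 2-fold. CSF1, LIF and OSM lie on both sides of 0 in different lines past the limit, and TGFB1 lies above 0 in the 4 lines.

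Among the 4 edited lines, which had the same medium, 5 of the 6 factors differed (limma F test on the 4 group means, adjusted p under 0.05 and a 2-fold range), as did 19.3% of tested genes. The adjusted p was 2.62e-09 for CSF2, 1.82e-08 for CSF1, 5.19e-09 for LIF, 6.35e-09 for OSM and 4.58e-06 for ANGPT2. TGFB1 passed on p (5.85e-05, limma) but its lines lay within 0.41 of each other, and 57.3% of genes passed on p alone. Over the 6 pairs of lines and 6 factors, 22 of 36 differences were called, where the share of tested genes called was 5.50% for IDH1R132H against IDH2R140Q, 7.86% and 7.49% for IDH1R132H against IDH2R140W and IDH2R172K, 5.69% and 7.57% for IDH2R140Q against IDH2R140W and IDH2R172K, and 6.86% for IDH2R140W against IDH2R172K. The calls were 5 pairs each for CSF1 and OSM, 4 each for CSF2, LIF and ANGPT2, and 0 for TGFB1 by limma, which had an unadjusted p under 0.05 in 5 of the 6 pairs. CSF1, LIF and OSM were each called higher than Parental in 1 line and lower in another, which 0.457% of tested genes were. The same 3 genes had every IDH2R140W library above the other 12, as did 1.89% of genes, and CSF1, CSF2 and OSM had every IDH1R132H library below the other 12, as did 4.31%.

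The widest contrasts lay between IDH2R140W and IDH1R132H, with 5 of 6 factors higher in IDH2R140W past the limit, beside 7.86% of genes changed. OSM was 19.3-fold higher there (log2 difference 3.70 in size, limma adjusted p = 2.03e-09), LIF 16.3-fold (5.25e-09), CSF1 8.68-fold (1.29e-08), CSF2 7.72-fold (8.73e-09) and ANGPT2 2.83-fold (8.46e-06). IDH2R140Q and IDH2R140W change 1 residue of IDH2 to different amino acids and yet 4 factors differed between them, where 5.69% of genes did. LIF was 15.2-fold higher in IDH2R140W (limma adjusted p = 9.81e-09), OSM 6.002-fold (2.10e-07), CSF2 5.52-fold (4.79e-08) and CSF1 2.56-fold (4.01e-05). ANGPT2 differed by 0.23 between those lines, with an interval of the difference, IDH2R140Q minus IDH2R140W, of −0.57 to 0.11 (limma adjusted p = 0.277). IDH2R172K and IDH2R140W shared the high CSF2 (difference 0.10, −0.16 to 0.36, limma adjusted p = 0.571), while CSF1, LIF and OSM were 6.25-, 6.18- and 4.79-fold lower in IDH2R172K (adjusted p of 5.82e-08, 1.73e-07 and 4.52e-07). The lowest LIF levels, in IDH1R132H and IDH2R140Q, differed by 0.06 (interval −0.43 to 0.31, IDH1R132H minus IDH2R140Q, limma adjusted p = 0.829).

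Of 12 receptor chains for these factors, 11 were tested, and 1 rose and 1 fell in both IDH1R132H and IDH2R172K, 1 fell in IDH2R140Q and 1 rose in IDH2R140W. Of all tested genes, 7.74% rose and 3.09% fell in IDH1R132H, and 6.36% and 2.96% in IDH2R172K. In IDH2R140Q 2.47% fell, and in IDH2R140W 2.68% rose. The median difference of the 11 chains from Parental was −0.27 in IDH1R132H, −0.07 and −0.08 in IDH2R140Q and IDH2R140W, and −0.10 in IDH2R172K, beside the medians over tested genes given above. CSF1R, the M-CSF receptor, rose from 2.29 ± 0.555 to 19.6 ± 1.21 TPM in IDH2R172K (2.66, limma adjusted p = 1.32e-06) and to 7.46 ± 1.51 in IDH1R132H (1.36, 0.000464). It was 2.41 ± 1.51 in IDH2R140Q (−0.02, limma adjusted p = 0.960) and 0.877 ± 0.191 in IDH2R140W (−0.80, 0.0278). The line with the highest CSF1 thus had the lowest mean CSF1R, and the 2 lines in which CSF1 fell were those in which CSF1R rose. CSF2RB, the signalling chain for GM-CSF, rose from 66.6 ± 14.5 to 167 ± 32.3 in IDH2R140W (1.32, limma adjusted p = 1.78e-05). It was 118 ± 2.52 in IDH2R140Q (0.84, limma adjusted p = 0.000462), 120.1 ± 2.99 in IDH2R172K (0.87, 0.000372) and 54.3 ± 1.87 in IDH1R132H (−0.27, 0.165). CSF2RA, the alpha chain, was listed at 0 on its 2 rows, which does not measure its absence.

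KIT, the receptor of the KITLG product, fell from 8.503 ± 1.60 to 2.31 ± 0.497 TPM in IDH2R140Q (−1.52, limma adjusted p = 1.47e-05) and to 3.12 ± 0.344 in IDH2R172K (−1.20, 0.000125). It stood at 14.1 ± 2.94 in IDH2R140W (0.66, limma adjusted p = 0.0161) and 5.74 ± 0.619 in IDH1R132H (−0.48, 0.0418). For the LIF, OSM and IL6 family, the shared chain IL6ST ranged from 5.83 to 29.3 over the 15 libraries, and against Parental it had 0 calls by limma, 0 at an unadjusted p under 0.05, and adjusted p from 0.217 to 0.950. OSMR, the specific OSM chain, fell from 3.72 ± 0.711 to 1.19 ± 0.358 in IDH1R132H (−1.11, limma adjusted p = 0.000959), which was −0.97 without IDH1R132H replicate 3. LIFR, the LIF chain, averaged between 0.360 and 1.02 TPM, and IL6R between 6.49 and 13.5, neither with a call. Past the p threshold only, LIFR was lower in IDH1R132H (−0.57, limma adjusted p = 0.0377) and IL6R higher in IDH2R140W (0.71, 0.00305). TEK averaged between 8.06 and 14.5 TPM, TGFBR1 between 10.0 and 13.9, TGFBR2 between 8.10 and 13.3 and the co-receptor TGFBR3 between 0.503 and 1.51, without a call against Parental. Short of the limit, TEK was higher in IDH1R132H (0.76, limma adjusted p = 0.00246), IDH2R140Q (0.71, 0.00424) and IDH2R140W (0.77, 0.00462). Also short of it, TGFBR2 was higher in IDH1R132H (0.58, limma adjusted p = 0.0047) and TGFBR3 lower in IDH2R172K (−0.73, 0.0237). Among the edited lines 3 of the 11 differed, CSF1R, KIT and CSF2RB, beside 19.3% of tested genes.

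**Figure D3:**
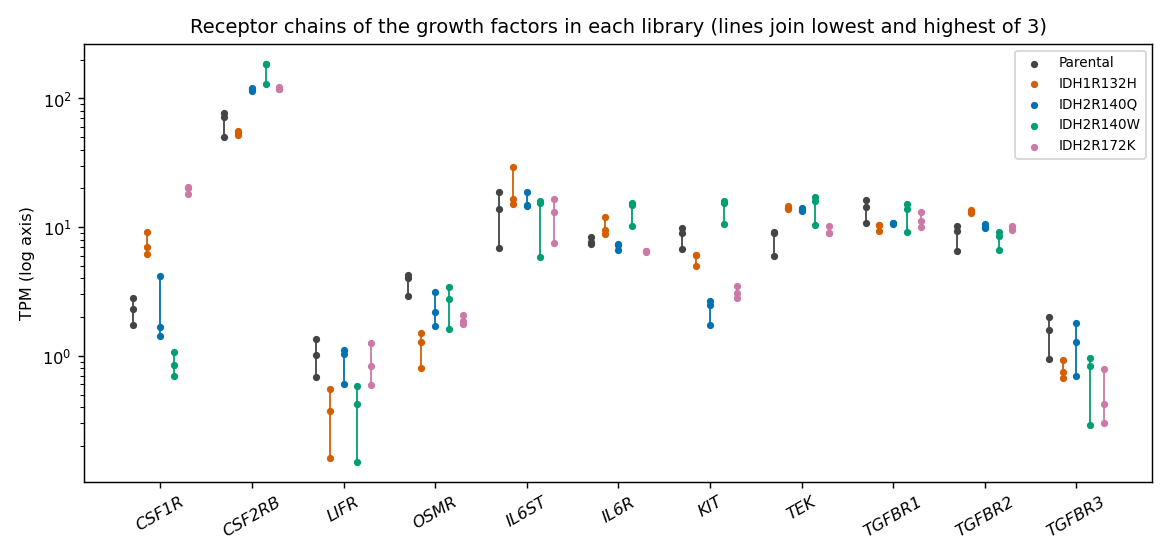
Level of the receptor chains in TPM (vertical axis, log scale) in each library, coloured by group, with a line from the lowest to the highest of 3 libraries. CSF1R is highest in IDH2R172K and lowest in IDH2R140W, and CSF2RB and KIT have their highest mean in IDH2R140W.

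Of 9 carriers of the JAK and STAT signal reported here, 0 changed in any of the 4 lines by limma, where 6 had an unadjusted p under 0.05 in IDH1R132H and 4 in each of the other lines. Their median differences were 0.24 in IDH1R132H, 0.43 and 0.03 in IDH2R140Q and IDH2R140W, and 0.22 in IDH2R172K. Over all tested genes the medians were 0.16, 0.23, 0.03 and 0.13, and 10.8%, 10.0%, 4.78% and 9.31% changed, in that order. JAK2, the kinase on CSF2RB, differed among the edited lines (F test, limma adjusted p = 3.94e-06), from 13.3 ± 1.14 in IDH2R140Q to 4.01 ± 0.336 in IDH2R172K. Against Parental, at 8.93 ± 0.923, JAK2 was lower in IDH2R172K (−0.98, limma adjusted p = 7.09e-05) and IDH2R140W (−0.43, 0.0382). It was higher in IDH2R140Q (0.52, limma adjusted p = 0.00756), each short of the limit on the log2(TPM + 1) scale. The adaptor SHC1 ranged from 70.4 to 108 TPM on average and was not called. It passed on p only, higher in IDH1R132H (0.64, limma adjusted p = 0.00271) and IDH2R140Q (0.43, 0.0269). STAT3, the main transducer for LIF and its relatives, averaged 96.1 ± 23.2 TPM in Parental and from 55.95 to 80.45 in the edited lines and was not called. In IDH1R132H STAT3 was lower past the p threshold but short of 2-fold (−0.74, limma adjusted p = 0.00197). Of 7 tested feedback and target genes of STAT factors, IDH1R132H had 3 that fell, IDH2R140Q 2, IDH2R140W 1 and IDH2R172K 0 by limma, where 5 were lower at an unadjusted p under 0.05. None was called higher, and 1 (BCL2L1 in IDH2R140W) was higher at an unadjusted p under 0.05. Their median differences were −0.72, −0.55, −0.33 and −0.41, where 3.09%, 2.47%, 2.1% and 2.96% of all tested genes fell. SOCS3, an inhibitor that STAT3 induces, fell from 35.6 ± 5.36 to 13.1 ± 0.331 in IDH1R132H (−1.37, limma adjusted p = 1.66e-06) and to 10.1 ± 0.436 in IDH2R140Q (−1.71, 2.38e-07). It was 23.4 ± 3.57 in IDH2R140W (−0.58, limma adjusted p = 0.00477) and 24.8 ± 2.83 in IDH2R172K (−0.50, 0.00760). LIF rose in the first of these lines and fell in the second, and a link between LIF and SOCS3 was not tested. SOCS2, a STAT5-induced inhibitor, fell in IDH1R132H from 52.2 to 24.2 TPM (−1.09, limma adjusted p = 2.71e-06). Short of 2-fold, SOCS2 was also lower at 29.1 in IDH2R172K (−0.83, limma adjusted p = 3.74e-05) and 35.5 in IDH2R140Q (−0.55, 0.00115). ID1, a target of STAT5 and of BMP signals, fell from 477 ± 72.03 to 112 ± 3.62 in IDH1R132H (−2.07, limma adjusted p = 6.06e-10), 102 ± 4.24 in IDH2R140Q (−2.20, 4.13e-10) and 218 ± 15.5 in IDH2R140W (−1.12, 5.80e-07). The last of these was just under 2-fold without Parental replicate 2 (−0.999). In IDH2R172K ID1 was also lower, at 254 TPM, but short of 2-fold (−0.90, limma adjusted p = 2.31e-06). BCL2L1, a survival gene that STAT5 induces, averaged between 226 and 379 TPM and was not called.

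Of 8 tested genes that store and release TGF-beta, 3 rose in IDH1R132H, 2 in IDH2R140Q and 1 in IDH2R172K, with no call downward, and 0 were called in IDH2R140W by limma, where 1 was higher and 3 were lower at an unadjusted p under 0.05. Their median differences were 0.72, 0.33, −0.21 and 0.23 in IDH1R132H, IDH2R140Q, IDH2R140W and IDH2R172K. Over all tested genes the medians were 0.16, 0.23, 0.03 and 0.13, and 7.74%, 7.56%, 2.68% and 6.36% rose, in that order. LTBP1, which tethers latent TGF-beta to the matrix, rose from 1.41 ± 0.277 TPM to 17.5 ± 1.31 in IDH1R132H (2.94, limma adjusted p = 2.27e-09), 34.4 ± 2.48 in IDH2R140Q (3.88, 2.61e-10) and 8.99 ± 0.542 in IDH2R172K (2.06, 9.24e-08). In IDH2R140W it was 3.01 ± 0.758 (0.72, limma adjusted p = 0.00208). THBS1, a matrix protein that can activate latent TGF-beta, rose from 3.49 ± 0.366 to 16.5 ± 3.46 in IDH1R132H (1.94, limma adjusted p = 2.36e-05) and 12.4 ± 3.14 in IDH2R140Q (1.54, 0.000197). LRRC32, a cell surface anchor of latent TGF-beta, rose from 10.9 ± 0.743 to 28.2 ± 0.791 in IDH1R132H (1.29, limma adjusted p = 1.36e-06). Short of 2-fold, LRRC32 was higher at 18.4 in IDH2R172K (0.70, limma adjusted p = 0.000405) and lower at 7.42 in IDH2R140W (−0.52, 0.00643).

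Among 10 tested SMAD genes and TGF-beta targets reported here, 4 rose in IDH1R132H, 1 rose in each of IDH2R140Q and IDH2R172K, and 1 fell in IDH2R140W. In IDH2R140W 0 rose by limma, also 0 at an unadjusted p under 0.05. Their median differences were 0.74 in IDH1R132H, 0.31 and 0.39 in IDH2R140Q and IDH2R172K, and −0.02 in IDH2R140W, beside the medians over tested genes given above. Of all tested genes 7.74%, 7.56% and 6.36% rose in IDH1R132H, IDH2R140Q and IDH2R172K, and 2.1% fell in IDH2R140W. BAMBI, a decoy receptor, rose from 3.70 ± 0.900 to 17.8 ± 0.503 in IDH1R132H (2.02, limma adjusted p = 1.15e-07) and to 9.91 ± 1.07 in IDH2R140Q (1.23, 1.73e-05, 0.90 after quantile normalisation and 0.9999 after median-ratio scaling). In IDH2R172K BAMBI was lower at 1.48 ± 0.318, past the p threshold but not the limit on the log2(TPM + 1) scale (−0.91, limma adjusted p = 0.00024). SMAD7, the inhibitory SMAD, rose from 3.13 ± 0.572 to 9.11 ± 1.29 in IDH1R132H (1.29, limma adjusted p = 9.69e-06). It was lower, short of 2-fold, in IDH2R140Q (−0.51, limma adjusted p = 0.0126) and IDH2R140W (−0.50, 0.0237). SMAD6, its relative, fell from 18.6 ± 1.78 to 7.81 ± 1.99 in IDH2R140W (−1.18, limma adjusted p = 5.80e-05). Short of 2-fold, SMAD6 was higher at 32.2 in IDH1R132H (0.76, limma adjusted p = 0.000958) and 34.4 in IDH2R172K (0.85, 0.000483). It was lower, also short of 2-fold, in IDH2R140Q (−0.45, limma adjusted p = 0.0267). TGFBI, a matrix protein, rose in IDH1R132H (1.23, limma adjusted p = 0.000322). SKIL, a SMAD repressor, rose in IDH1R132H from 13.9 ± 6.72 to 67.7 ± 2.94 (2.32, limma adjusted p = 2.82e-05) and in IDH2R172K to 29.9 ± 4.93 (1.16, 0.00733), which was 0.73 without Parental replicate 2 and missed p in a fit of only those 2 groups (0.0547).

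**Figure D4:**
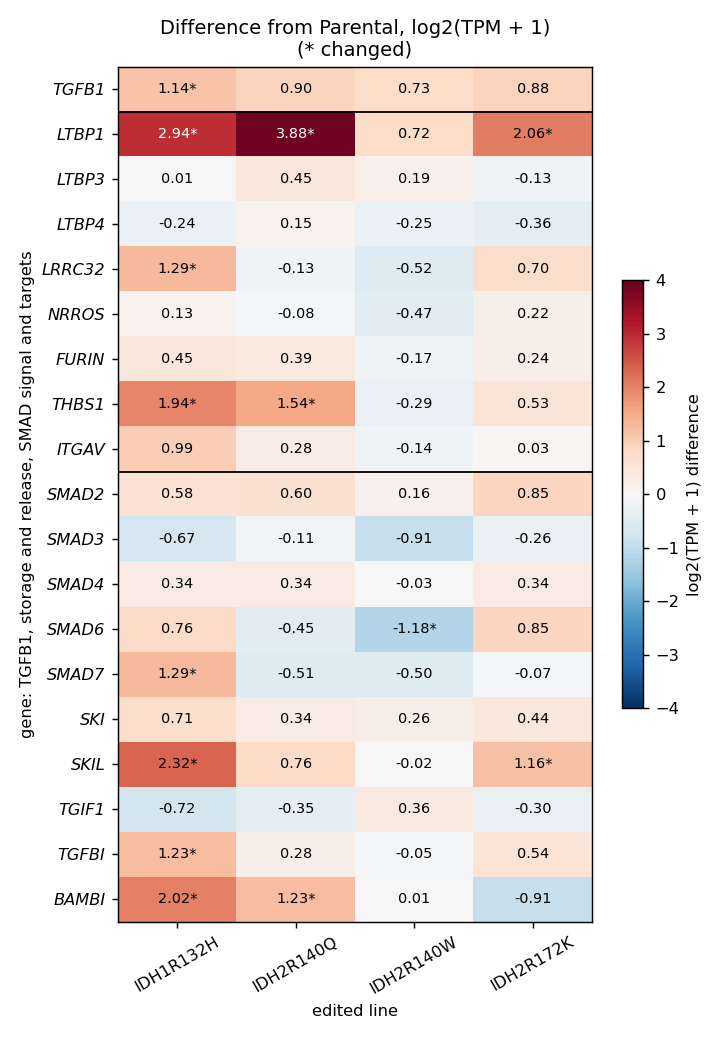
Difference of each edited line from Parental on the log2(TPM + 1) scale (colour and printed value) for TGFB1 and the tested genes of TGF-beta storage and release and of SMAD signalling, with an asterisk where the gene was called changed. TGFB1 is marked in IDH1R132H, LTBP1 in 3 lines, and SMAD2, SMAD3 and SMAD4 in none of them.

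Of 24 other cytokine genes of blood cells, 12 were tested. ANGPT1 rose and IL1A and HGF fell in IDH1R132H, IL7 and ANGPT1 rose in IDH2R140Q, PDGFA in IDH2R140W, and IL1B in IDH2R172K. The fall of HGF was short of 2-fold without Parental replicate 1 (−0.91). Median differences of the 12 were 0.04 in IDH1R132H, 0.22 and 0.34 in IDH2R140Q and IDH2R140W, and 0.14 in IDH2R172K. Over all tested genes the medians were 0.16, 0.23, 0.03 and 0.13, and 10.8%, 10.0%, 4.78% and 9.31% changed, in that order. CSF3, IL3, IL5 and EPO averaged under 0.3 TPM in each group. THPO, which also missed the filter, stood at 0.78, 0.95 and 1.86 TPM in Parental and at or under 0.14 in each edited library. IL1B, an inflammatory cytokine, rose from 97.5 ± 4.03 to 208 ± 2.68 TPM in IDH2R172K (1.08, limma adjusted p = 2.14e-08, and 0.93 after median-ratio scaling) and was 127 ± 3.61 in IDH2R140W (0.38, 0.000685). IL1A fell from 5.13 ± 0.934 to 1.79 ± 0.430 in IDH1R132H (−1.14, limma adjusted p = 5.59e-05). In IDH2R140Q IL1A was lower at 2.28 (−0.89, limma adjusted p = 0.000471) and PDGFA higher at 4.07 (0.92, 0.00066). Both were short of the limit on the log2(TPM + 1) scale. In Parental IL7 was listed at 0 in each library, whereas IDH2R140Q held 5.25, 2.78 and 3.88 TPM and was called higher (limma adjusted p = 6.70e-07), and IL7 stayed at or under 0.53 in the other lines.

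Genes most like each factor were ranked by Pearson's r over the 15 libraries among 9189 genes that reached 10 TPM in their highest group, which describes likeness of pattern among libraries that share their lines. Most like CSF1 were ADCYAP1 (r = 0.958), TNFSF10 and CEBPA (0.953 each), and TNFSF10 also followed OSM (0.941). TNFSF10, which encodes the death ligand TRAIL, averaged 110.8 TPM in IDH2R140W, 59.0 in Parental, 42.8 in IDH2R140Q, 30.1 in IDH2R172K and 16.8 in IDH1R132H. For CSF2 the first were PTPN5 (0.983), PTGIR (0.958) and APOC2 (0.956), and for LIF they were RPS4X (0.963), TM4SF1 (0.957) and PPM1H (0.943). MAGEC1 (0.948) was second for OSM, after a clone-based symbol without a gene name. ANGPT2 was followed by ZBTB42 (0.970), MANEAL (0.958) and CPPED1 (0.952). TGFB1 was followed by GAD1 (0.986), CD44 (0.979, and 0.934 after median-ratio scaling) and RTN1 (0.978), and the adhesion receptor CD44 averaged 195 TPM in Parental and from 526 to 1187 in the edited lines.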

How the data were processed

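Poly(A) RNA of 15 TF-1 libraries was sequenced, 3 in each of 5 genotype groups taken from the labels. The authors deposited 1 table of TPM values with a column per library, and hg38, RSEM, HTSeq, DESeq2 and STAR 2.7.3 are named, without roles, in the submitters' processing notes. Annotation release and strand setting: not given in the sources used here. TPM keeps no read number, so depth and the precision it gives are unknown. Columns sum to about 999980.

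The 63568 rows were summed by symbol, and 6 rows whose symbol had become a date shared by several genes were dropped. The 14881 genes that reached 1 TPM in 3 or more libraries were fitted as log2(TPM + 1), a pseudocount of 1, with limma 3.58.1 in R 4.3.3, with 1 mean per group over the 15 libraries, a variance trend and Benjamini-Hochberg adjustment over the genes tested. The fit was tested on simulated data. Coordinates come from GENCODE on hg38 and promoter windows from RefSeq (GRCh38.p14), whose table held 4 of the 8 growth factor genes (CSF2, IL6, KITLG and TGFB1).

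The 8 genes and the gene lists were chosen with earlier results of these data known. Of the listed genes, 2 are not reported here and were left out of the counts and medians of their lists. Named are the 8 genes, their receptor chains, the 3 genes of each list with the smallest adjusted p over the edited lines, the nearest tested coding neighbours and the 3 genes most like each factor. Other genes behind counts of 5 or fewer were named after their values were seen, and not each neighbour is described. Alternatives were another pseudocount and other filters, 3 other scalings, library weights, no variance trend, a fit restricted to the libraries compared, a block for the replicate number, and omission of each library. Leaving out Parental replicate 2 and IDH2R140W replicate 3 together was chosen after seeing the data.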

Additional observations from a re-analysis of the deposited data

Results flagged for a closer look

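The differences from Parental were not equal over the 4 edited lines for 5 of the 6 tested factors, by limma's F test with Benjamini-Hochberg adjustment over 14881 genes, which is a test of the difference between lines itself. The adjusted p was 1.82e-08 for CSF1, 2.62e-09 for CSF2, 5.19e-09 for LIF, 6.35e-09 for OSM and 4.58e-06 for ANGPT2. Of tested genes 19.3% passed the same rule.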

How the results depend on the processing

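Over 17 alternatives for each comparison with Parental, and those run among the edited lines, counts of changed factors kept their value except for these. After median-ratio scaling 0 factors rose in IDH1R132H by limma (TGFB1 0.94, adjusted p = 3.51e-08), and with library weights 1 fell in IDH2R140Q (CSF2 −0.97). In IDH2R140W 3 rose after median-ratio scaling or quantile normalisation (LIF 0.99 in both), and 5 with a pseudocount of 0.1 (CSF2 1.04). Called differences between pairs of lines numbered 23 with that pseudocount and 21 after median-ratio scaling, in place of 22. Leaving out each library in turn gave 3 to 4 rises in IDH2R140W, and 21 to 22 called differences between pairs of lines. The difference of CSF1 between IDH2R140Q and Parental, which was not called, turned negative at −0.24 after median-ratio scaling, −0.25 after quantile normalisation and −0.05069 after rescaling without globin, mitochondrial and ribosomal protein genes. Leaving out single libraries moved it from −0.1073 to 0.1472, and it was −0.1073 without Parental replicate 2 (also without IDH2R140W replicate 3), −0.001077 without Parental replicate 3, −0.0004502 without IDH2R140Q replicate 2 and −0.009178 without IDH2R140Q replicate 3. The cause was not tested. LIF in IDH1R132H against IDH2R172K lost 2-fold without single libraries (−0.92 without IDH1R132H replicate 3), as did ANGPT2 in IDH2R140Q against IDH2R172K after median-ratio scaling (0.95). With a pseudocount of 0.1 the changed genes over the whole table numbered 1115 in place of 711 in IDH2R140W against Parental, and 1298 in place of 847 in IDH2R140Q against IDH2R140W. With the replicate number as a block, 1 factor rose and 4 fell in IDH1R132H, 1 and 2 in IDH2R140Q, 4 and 0 in IDH2R140W and 0 and 2 in IDH2R172K, with 5 differing among the edited lines and 22 called pairs, as without it. Deviations of same-numbered libraries correlated between −0.285 and 0.223, and 6 of 15 libraries correlated best with their own number, so the numbers were not taken as pairs. Depth is unknown, which limits the reading of IL6, KITLG and other genes near 0.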
